A study of Mus musculus with 28 samples.

Results

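The genes examined here encode the subunits of the mitochondrial oxidative phosphorylation complexes. They were chosen by symbol, from transcript clusters that carried exactly 1 gene symbol beginning with Nduf followed by a, b, c, s or v, with Uqcr, with Cox and a digit of the nuclear-encoded series, or with Atp5, together with the Sdh genes. Where a gene had several clusters, the one with the highest mean was kept. The choice gave 89 of the 19938 genes tested. They were grouped as 34 genes of complex I, 4 of complex II, 8 of complex III, 19 of complex IV and 17 of the ATP synthase. The other 7, Ndufaf1 to Ndufaf7, matched the symbol pattern but are assembly factors of complex I rather than subunits, and they are given apart. Ndufa4 and its paralog Ndufa4l2 were counted with complex IV, to which Ndufa4 is now assigned.

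Oxidative phosphorylation passes electrons from NADH (complex I) and succinate (complex II) through complex III and cytochrome c to complex IV, which reduces oxygen. The pumped protons drive the rotary ATP synthase, whose Fo portion sits in the inner membrane and whose F1 head makes ATP. Neurons depend heavily on this pathway for the ATP that restores ion gradients after firing, and all genes examined here are nuclear.

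Hippocampal RNA was hybridised to 28 arrays (Affymetrix Mouse Gene 1.0 ST), each holding RNA pooled from 3 to 4 mice. All mice were C57/DBA F1 hybrid females aged 3 months, and wild-type and cbp+/- mice were littermates. In cbp+/- mice 1 of the 2 copies of the gene encoding CBP, a histone acetyltransferase, is disrupted. Trichostatin A (TSA), a histone deacetylase inhibitor, was given intraperitoneally at 2.4 mg/kg, 75 min before the tissue was collected, and the vehicle was DMSO in saline. Novelty was 1 h in an unfamiliar white box with tubing and toys, begun 15 min after TSA where TSA was given. For each genotype, 3 arrays came from mice given novelty and TSA, 3 from novelty with vehicle, 3 from the standard cage with TSA, 3 from the standard cage with vehicle and 2 from mice in the standard cage that the labels call naive. The labels call the replicates independent, but injected arrays shared deviations in sets (described below). Those of the same set correlated at 0.42 to 0.81 in their deviations from group means. Fits without a set block treat the pools as separate and do not allow for this. The small number of arrays limits the precision. The submitters state that the control arrays also belong to a second, parallel series. Tissue was whole hippocampus, in which fewer cells of a type and less RNA per cell cannot be told apart.

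The median log2 value of an array lay between 5.46 and 5.63, and all 89 genes were tested, with no filter on low values. The neuronal markers Snap25 and Syt1 ranged from 11.41 to 11.89 and from 11.75 to 12.28 over the arrays. Crebbp, the gene for CBP, did not fall in arrays labelled cbp+/- (difference from wild type 0.19 ± 0.12 SE, adjusted p = 1), so it does not check the genotype labels; the position of its probes relative to the disruption was not given in the sources used here. Choroid plexus markers varied between arrays. Their mean deviation was over 0.9 in 3 arrays, replicate 1 of cbp+/- cage TSA (1.66), replicate 1 of wild-type novelty TSA (2.03) and replicate 3 of cbp+/- cage vehicle (2.101). Below that limit, which was set after seeing the data, cbp+/- novelty TSA replicate 2 had 0.83, wild-type novelty vehicle replicate 1 had 0.55 and wild-type naive replicate 1 had 0.61. The 24 arrays from injected mice fell into 3 sets of 8. Replicate 1, 2 or 3 of every TSA and novelty group shared its deviations with vehicle control 3, 4 or 5, in that order, and the 4 naive arrays stood apart from these. No label names these sets. They are called set 2, set 3 and set 4, with the naive arrays as set 1.

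Differences between arrays of different sets were the main variation of the oxidative phosphorylation genes. In set 4 (replicates 3 and vehicle control 5) most of them were high, across both genotypes and every treatment. Taking each gene as its deviation from its own mean over all arrays, the median over the 89 genes ran from 0.10 to 0.36 log2 in the 8 arrays of set 4. It ran from -0.11 to -0.0004 in set 2, from -0.22 to -0.07 in set 3 and from -0.18 to -0.08 in the naive arrays. By this median every set 4 array lay above every other array. Over all 19938 genes the same median stayed between -0.05 and -0.002 in set 4.

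**Figure D1:**
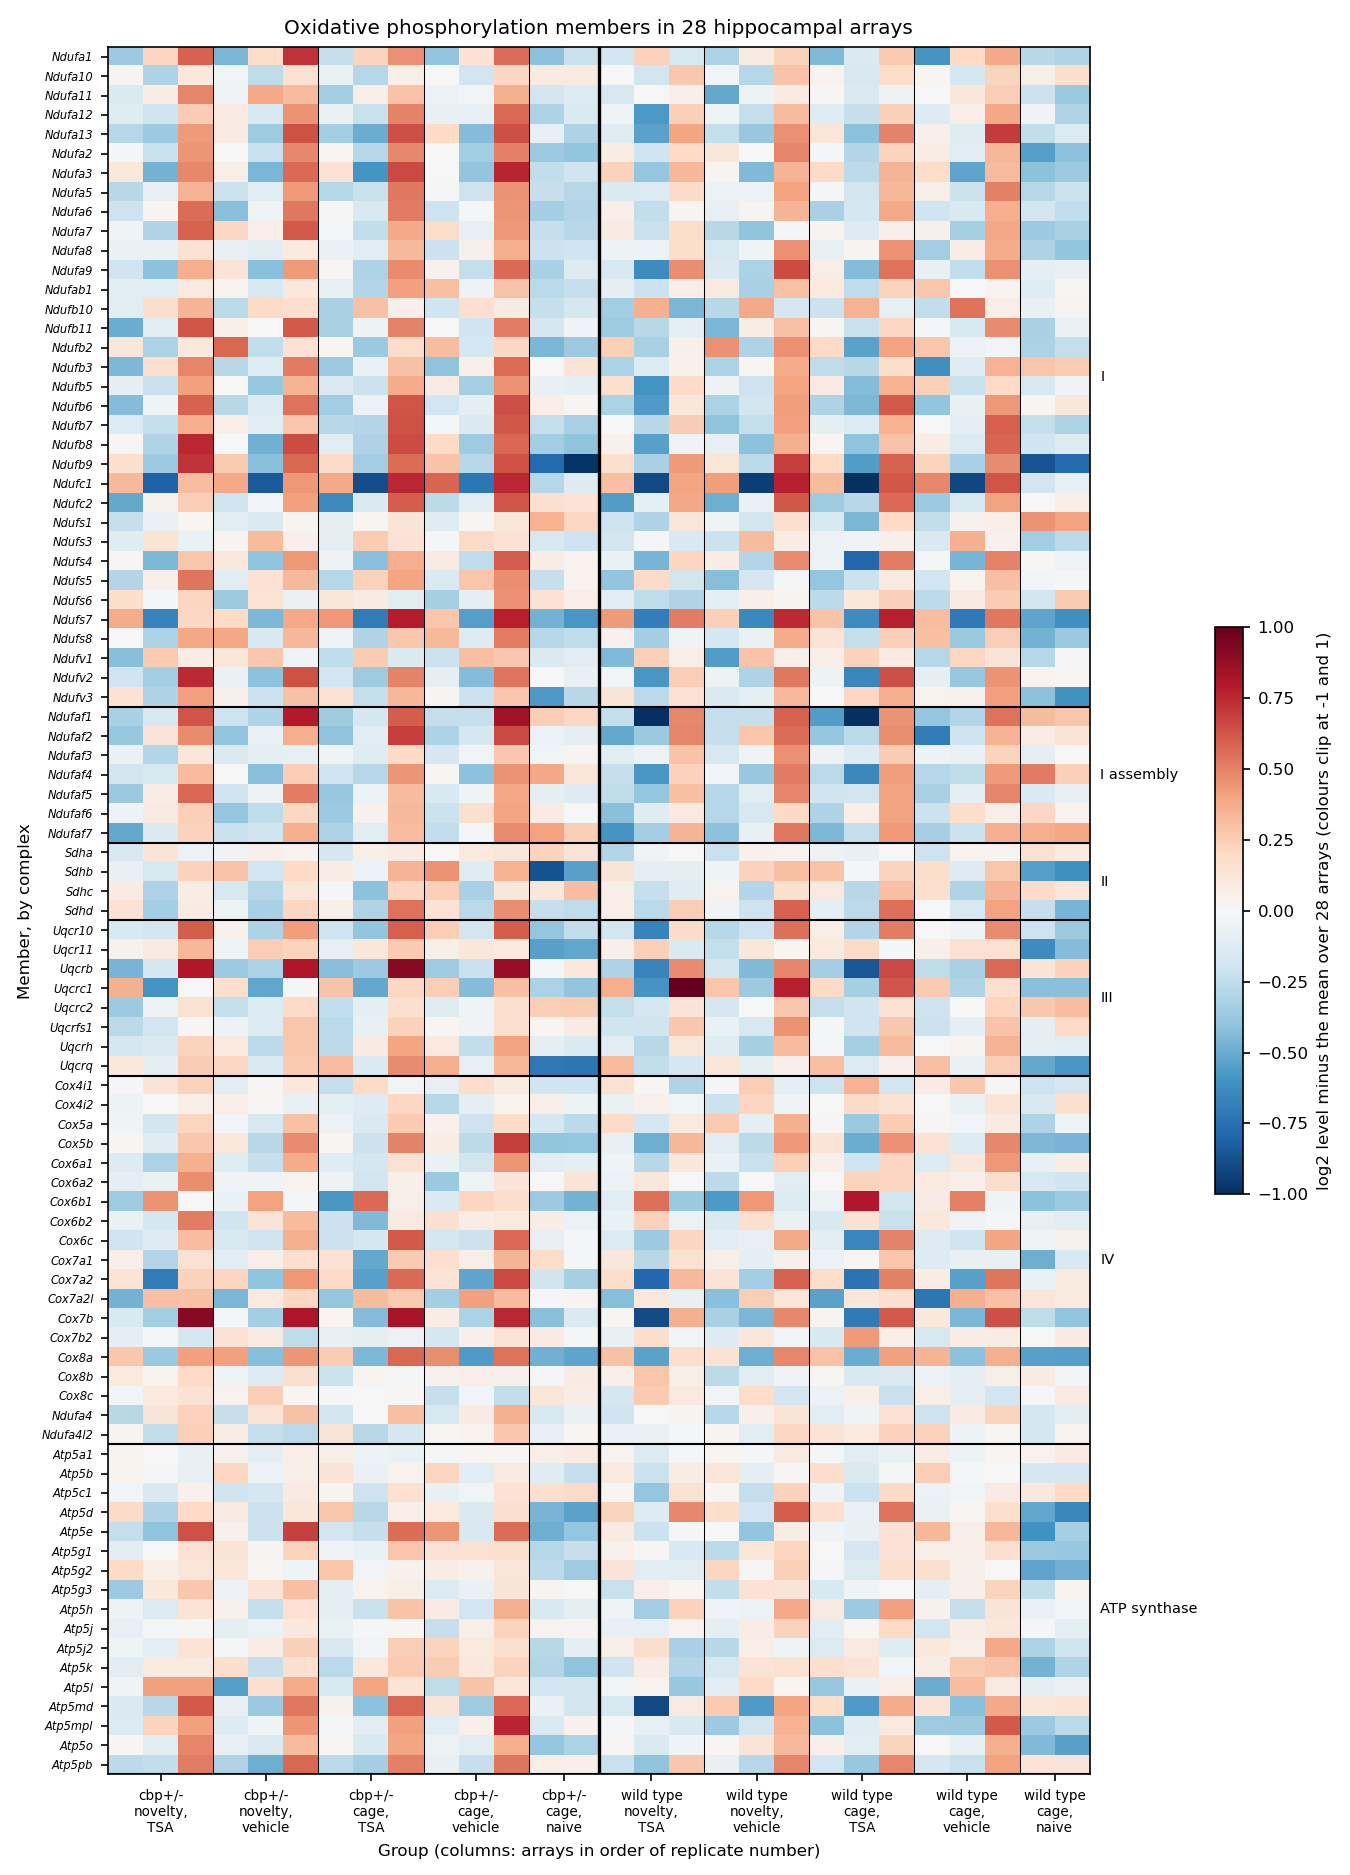
Deviation of each of the 89 genes (rows, grouped by complex) from its own mean over 28 arrays, in log2 units, with arrays as columns grouped by genotype, housing and injection. Red columns recur at the third array of each injected group, where the median deviation was 0.10 to 0.36.

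The difference between set 4 and the mean of sets 2 and 3 was positive for 82 of 89 genes, with a median of 0.37 (range -0.20 to 1.07), against a median of -0.04 over all genes. In 30 of the 89 genes (33.7%) all 8 arrays of set 4 lay above all 16 arrays of sets 2 and 3. Over all genes tested this held for 3.85%. No oxidative phosphorylation gene had all 8 set 4 arrays below the other 16, against 5.24% of all genes. The median difference was 0.50 for complex I, 0.65 for its assembly factors, 0.23 for complex II, 0.40 for complex III, 0.22 for complex IV and 0.20 for the ATP synthase. Complex I held 14 of the 30 genes and the assembly factors 5. Mitochondrial ribosomal protein genes (77) had a median of 0.35 and cytosolic ribosomal protein genes (61) a median of 0.21. Of the 10 marker lists, 9 had a negative median in set 4. The choroid plexus list had -0.55, CA1 -0.44, dentate granule -0.37, endothelial -0.27, neuronal -0.20 and astrocyte -0.17, while microglia had 0.03. All arrays over the choroid plexus limit were of set 2. The mean log2 level of the 6 choroid plexus markers ran from 5.44 to 5.79 in set 4 and from 5.45 to 8.07 in sets 2 and 3. The mean log2 level of the 4 endothelial markers ran from 6.35 to 6.70 in set 4 and from 6.47 to 6.96 in sets 2 and 3, and that of the 5 neuronal markers from 10.90 to 11.18 and from 11.05 to 11.41. The mean level of the 3 CA1 or pyramidal markers ran from 8.26 to 8.45 in set 4. This lay within the 8.12 to 8.76 of sets 2 and 3, although their median difference was -0.44. The part of the markers in the result was not tested.

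Single genes show the size of the pattern. Uqcrb, a small subunit of complex III, measured 10.41 to 10.85 in set 4, against 9.48 to 9.76 in set 2 and 9.09 to 9.77 in set 3. Cox7b, a subunit of complex IV, measured 9.82 to 10.38 in set 4, against 9.14 to 9.57 in set 2 and 8.57 to 9.15 in set 3. Neither gene's set 4 values overlapped the rest of the injected arrays. Ndufc1, an accessory subunit of complex I and the gene with the largest SD over arrays (0.64), separated set 3 instead. It measured 9.40 to 9.68 in set 2, 7.95 to 8.38 in set 3 and 9.41 to 9.88 in set 4. Cox6b1, the common isoform of subunit 6B, ran opposite to most genes, at 9.84 to 10.43 in set 3 against 9.04 to 9.71 in set 2 and 9.25 to 9.80 in set 4. At the other end stood Atp5a1, the alpha subunit of the F1 head, with an SD of 0.06 and all 28 arrays between 11.19 and 11.41. Its partner Atp5b (beta) had an SD of 0.13 and Sdha, the flavoprotein of complex II, 0.12. The 5 genes with the largest SD were Ndufc1, Ndufs7 (a core iron-sulfur subunit), Ndufb9, Uqcrb and Ndufaf1, at 0.64, 0.56, 0.51, 0.51 and 0.50.

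**Figure D2:**
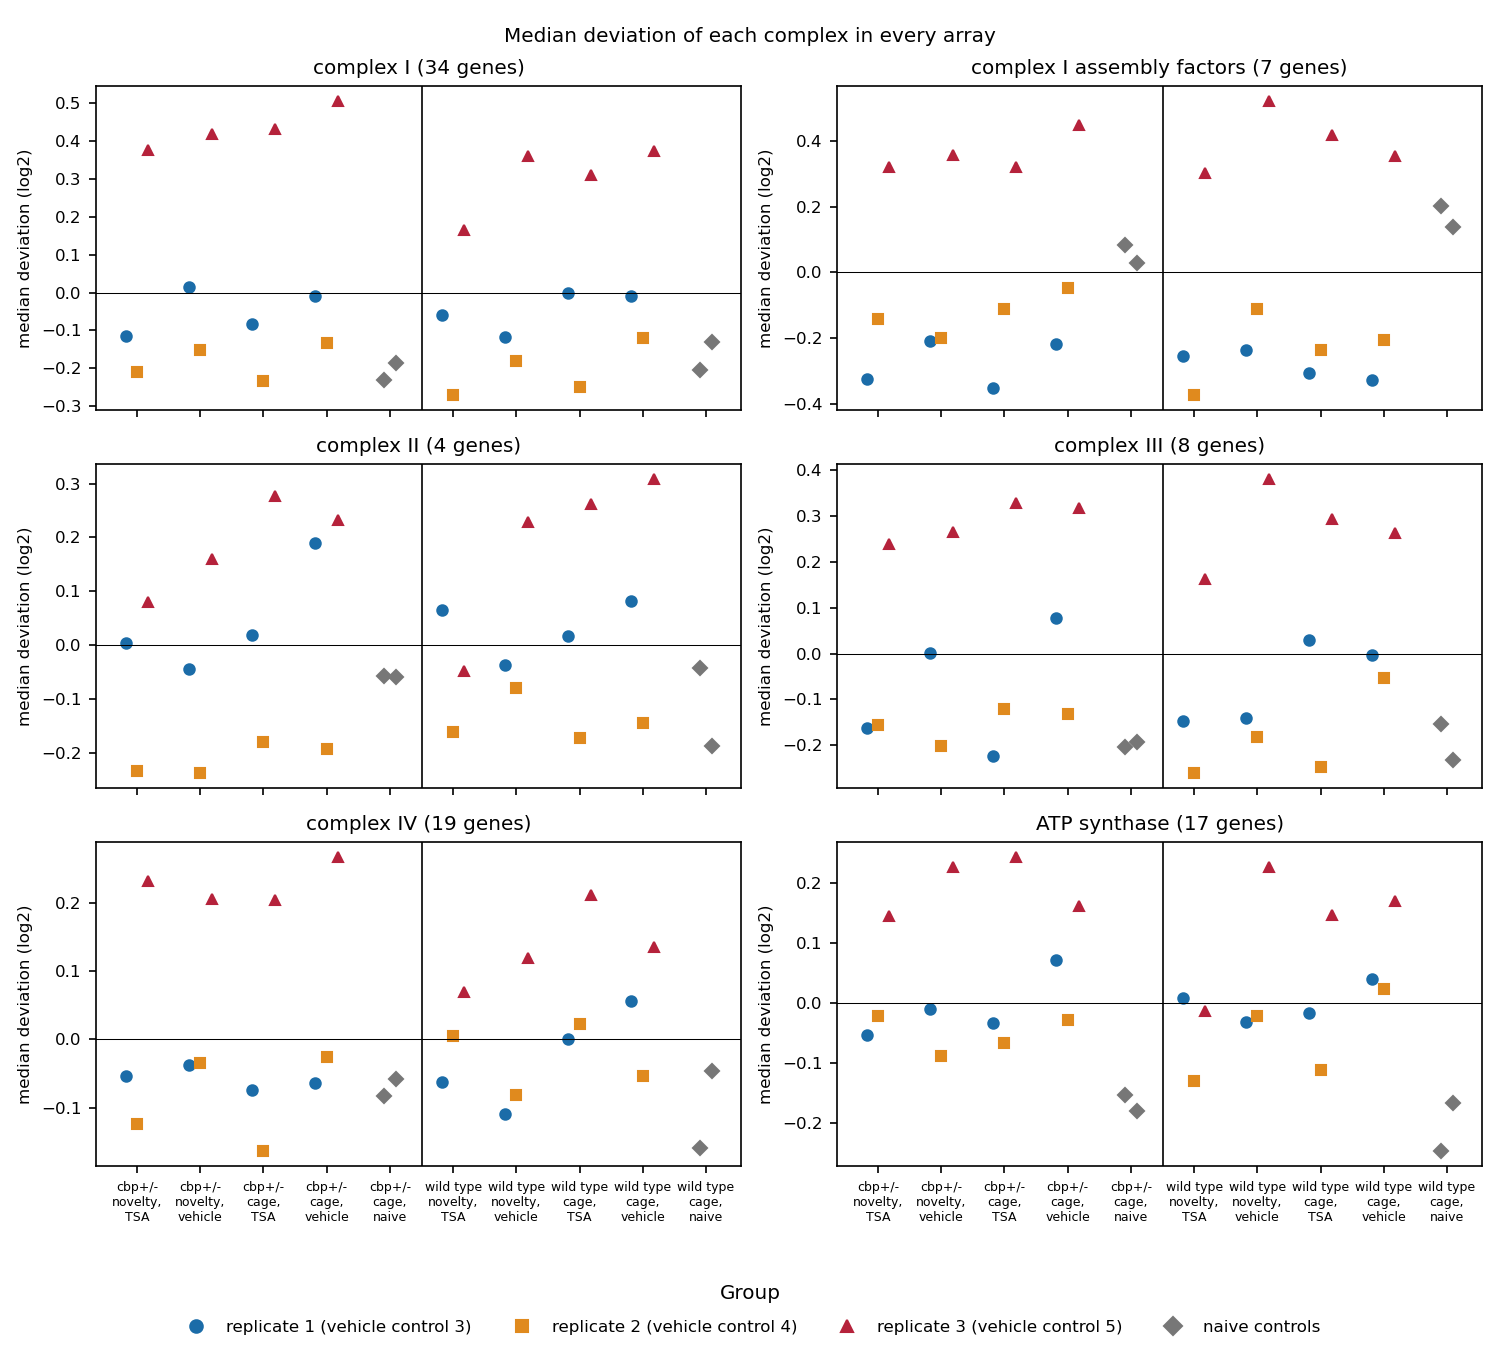
Median deviation (log2) of the genes of each complex in each array, by group. Colours and symbols mark the replicate number that defines each set, and the triangles of replicate 3 (vehicle control 5) lie highest in complexes I, III and IV in every injected group.

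Over the 24 injected arrays, the set accounted for a median of 73.9% of a gene's variance and the 8 injected groups for 9.09%. Over all genes tested the medians were 38.6% and 19.2%. The shares are a description, since sets and groups have unequal numbers of levels and the sets were found in these data. The set share exceeded the group share in 80 of 89 genes (89.9%), against 65.3% of all genes. By complex this held for 33 of 34 complex I subunits, all 7 assembly factors, all 4 complex II and all 8 complex III genes, 15 of 17 ATP synthase genes and 13 of 19 complex IV genes. The 6 complex IV genes without it were Cox4i2, Cox6a2, Cox6b2, Cox8b, Cox8c and Ndufa4l2, which are paralogs of the common subunits, several known from muscle or testis. The common isoform of a subunit and its paralog often differed in this respect. The set accounted for 79.6% of the variance of Cox6a1 and 28.4% of that of Cox6a2, for 73.2% in Cox6b1 and 9.77% in Cox6b2, and for 94.8% in Cox8a, 8.24% in Cox8b and 26.7% in Cox8c. In subunit 7A it accounted for 93.3% in Cox7a2, 89.0% in the related Cox7a2l and 42.3% in the muscle isoform Cox7a1, and it gave 84.4% in Ndufa4 and 25.6% in Ndufa4l2. Cox4i1 and Cox4i2 lay closer, at 36.2% and 22.8%. These paralogs are dim on the arrays, with means between 4.66 and 6.21 for Cox8b, Cox8c, Cox6b2, Ndufa4l2, Cox7a1, Cox4i2 and Cox6a2. Cox7b2 was dimmer still (mean 3.93), yet it was not among the 6 complex IV genes without a larger set share. The part of low signal in the smaller shares was not tested. Of the 3 genes that encode the same c subunit, Atp5g3 had 66.8%, Atp5g2 33.5% and Atp5g1 25.2%.

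The range of the 8 injected group means had a median of 0.23 log2, and that of the set means a median of 0.52. Over all genes tested these medians were 0.23 and 0.24. The median SD was 0.30 between arrays of 1 group and 0.13 within a set, against 0.19 and 0.13 over all genes.

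**Figure D3:**
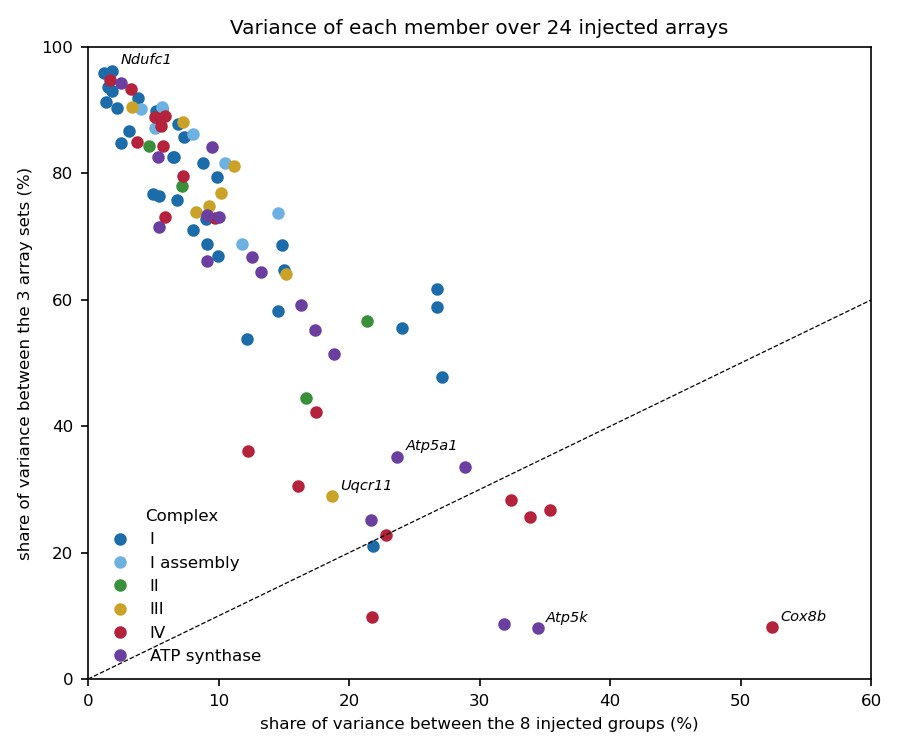
Share of each gene's variance over 24 injected arrays between the 3 array sets (vertical axis, %) and between the 8 injected groups (horizontal axis, %), 1 point per gene, coloured by complex. Most points lie above the dashed line of equal shares, with Ndufc1 highest on the vertical axis (96.2%) and Cox8b farthest along the horizontal axis (52.4%).

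Standard-cage controls were of 2 kinds, vehicle-injected and naive, and they were set against each other. Averaged over genotypes, 10 of the 89 genes rose in vehicle controls (6 arrays) against naive controls (4 arrays) and none fell (limma, adjusted p under 0.05). Over all genes tested 1.08% rose and 1.32% fell, 2.41% in all. At an unadjusted p under 0.05 there were 26 higher and 3 lower, against 14.4% of all genes. The ATP synthase contributed 6 of its 17 genes, complex III 2 of 8, complex II 1 of 4 and complex I 1 of 34. The complex I count depended on the row kept for Ndufa11. In a limma fit of all rows, the row used differed by 0.33 ± 0.14 (adjusted p = 0.258). Its other row, of slightly lower mean, differed by 0.69 ± 0.13 (adjusted p = 0.00437). No complex IV gene (0 of 19) and no assembly factor (0 of 7) passed, with 5 and 0 of them at an unadjusted p under 0.05. The difference was positive for 66 of 89 genes with a median of 0.21, against 0.01 over all genes. Without set 4 this median was 0.09, against 0.02 over all genes. With all sets the medians were 0.31 in complex I, 0.13 in complex II, 0.32 in complex III, 0.15 in complex IV, 0.25 in the ATP synthase and -0.08 for the assembly factors. The vehicle controls spanned sets 2 to 4 and the naive controls were all of set 1, so injection and array set cannot be told apart here. Vehicle controls of the 2 genotypes in the same set correlated at 0.58 to 0.77. The fit treats them as separate, so its SE and p-values do not allow for this.

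Uqcr11, a small subunit of complex III, measured 7.54, 7.60 and 7.58 in cbp+/- vehicle arrays, against 6.94 and 6.97 in cbp+/- naive arrays. In wild type it measured 7.53, 7.64 and 7.63 with vehicle, against 6.85 and 7.04 in naive arrays. All vehicle arrays lay above all naive arrays, and the difference was 0.64 ± 0.09 (SE; adjusted p = 0.000656). Uqcrq, another small subunit of complex III, measured 8.65, 8.21 and 8.62 in cbp+/- vehicle arrays, against 7.57 in both cbp+/- naive arrays. In wild type it measured 8.59, 8.22 and 8.53 with vehicle, against 7.77 and 7.70 in naive arrays. The groups did not overlap, although vehicle control 4 was the lowest vehicle array in both genotypes, and the difference was 0.82 ± 0.14 (adjusted p = 0.00264).

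Sdhb, the iron-sulfur subunit of complex II, measured 8.76, 8.19 and 8.65 in cbp+/- vehicle arrays, against 7.44 and 7.77 in cbp+/- naive arrays. In wild type it measured 8.48, 8.17 and 8.58 with vehicle, against 7.75 and 7.69 in naive arrays. The groups did not overlap, and the difference was 0.81 ± 0.13 (adjusted p = 0.00168). The other complex II genes did not pass. The membrane anchors Sdhd and Sdhc differed by 0.39 ± 0.20 and -0.14 ± 0.15 (adjusted p = 0.390 and 0.774), and the flavoprotein Sdha by -0.14 ± 0.08 (adjusted p = 0.495).

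Among ATP synthase genes, Atp5g2, which encodes the c subunit of the Fo ring, measured 9.44, 9.41 and 9.49 in cbp+/- vehicle arrays, against 9.11 and 9.01 in cbp+/- naive arrays. In wild type it measured 9.53, 9.42 and 9.37 with vehicle, against 8.84 and 8.89 in naive arrays. The difference was 0.48 ± 0.08 (adjusted p = 0.00168). The same protein is made from Atp5g1, at 9.22, 9.22 and 9.24 in cbp+/- vehicle arrays against 8.79 and 8.84 in naive arrays, and at 9.13, 9.13 and 9.24 against 8.70 and 8.69 in wild type. Its difference was 0.44 ± 0.09 (adjusted p = 0.0118), while the third c subunit gene, Atp5g3, had a difference of 0.07 ± 0.11 (adjusted p = 0.882). Atp5k (subunit e of Fo) had a difference of 0.57 ± 0.11 (adjusted p = 0.00577), with vehicle arrays between 7.89 and 8.10 and naive arrays between 7.34 and 7.52. Atp5j2 (subunit f), Atp5o (the stalk protein that confers oligomycin sensitivity) and Atp5d (delta subunit of F1) differed by 0.39 ± 0.10, 0.50 ± 0.13 and 0.59 ± 0.16, with adjusted p of 0.0476, 0.0490 and 0.0496. The vehicle arrays ran from 9.84 to 10.16, from 8.90 to 9.36 and from 10.29 to 10.61, against 9.46 to 9.69, 8.46 to 8.68 and 9.78 to 9.97 in the naive arrays. In all 3 genes the lowest vehicle array was still above the highest naive array.

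Ndufb9, an accessory subunit of complex I, had the largest difference, 1.02 ± 0.27 (adjusted p = 0.0492). It measured 9.12, 8.55 and 9.47 in cbp+/- vehicle arrays, against 8.06 and 7.85 in naive arrays, and 9.06, 8.51 and 9.31 against 7.97 and 8.06 in wild type. Its vehicle values also differed between sets, and vehicle minus naive was 1.10, 0.54 and 1.40 in sets 2, 3 and 4. Ndufs1, a core iron-sulfur subunit of complex I, went the other way without passing the test (difference -0.37 ± 0.11, adjusted p = 0.0819), with all 24 injected arrays between 8.89 and 9.54 and the naive arrays between 9.56 and 9.80.

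**Figure D4:**
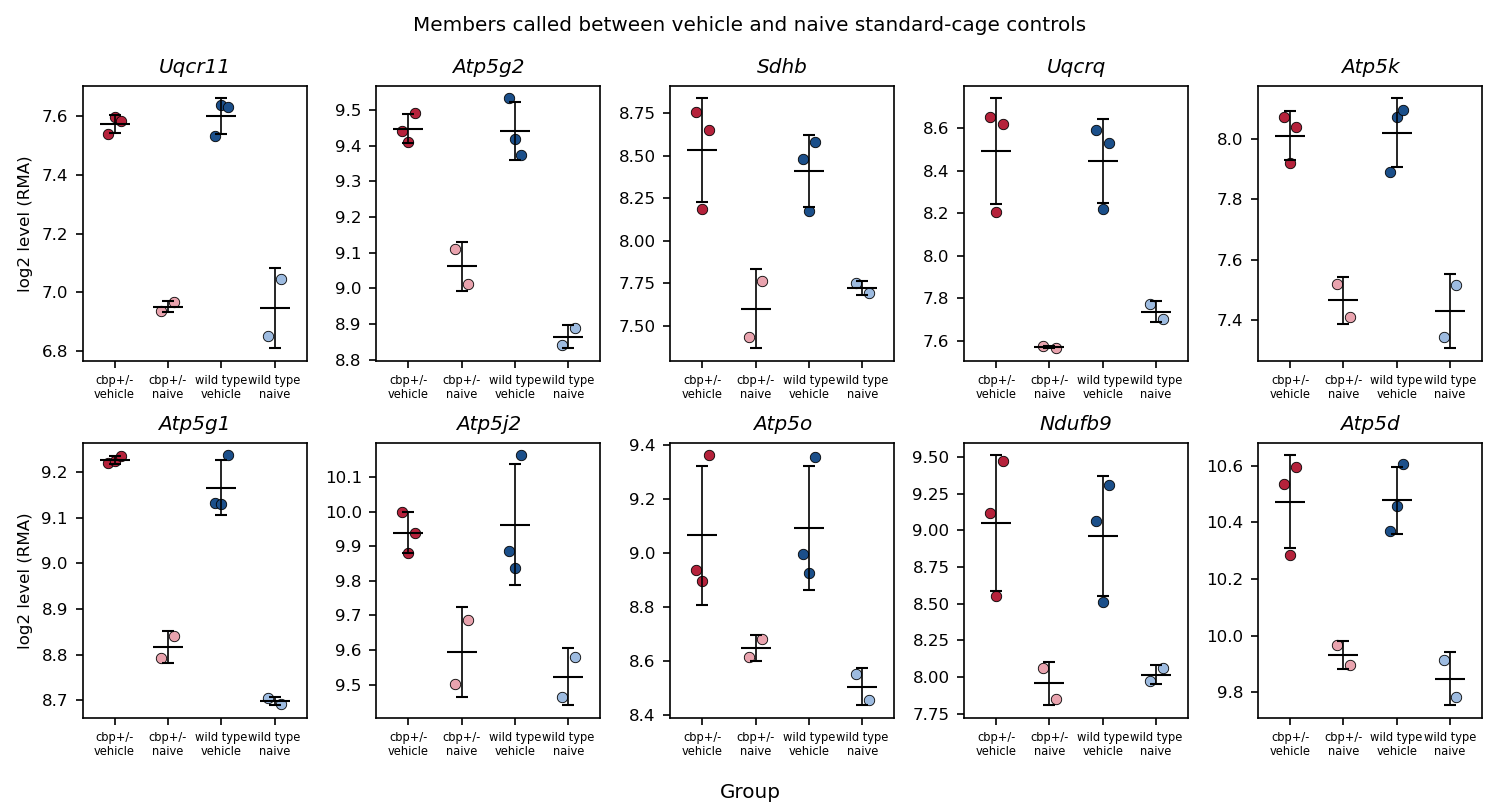
Log2 level of the 10 called genes in vehicle and naive standard-cage controls of both genotypes. Points are arrays, and bars are the mean and SD (n = 3 vehicle and 2 naive arrays per genotype). In every panel the vehicle points lie above the naive points.

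All 6 vehicle arrays exceeded all 4 naive arrays in 22 of the 89 genes, against 4.07% of all genes, and lay below them in 2 (Ndufs1 and Uqcrc2), against 4.80%. The TSA and novelty arrays were injected too, and 8 of the 10 called genes had all 24 injected arrays above the naive arrays; Atp5g1 and Atp5j2 did not. With Ndufa2, this held for 9 of 89 genes, against 1.29% of all genes. Leaving out single arrays moved the count of called genes between 4 and 11, while the share of all genes called moved between 0.562% and 2.26%. It was 4 without wild-type naive 1, 5 without wild-type naive 2, cbp+/- naive 1 or cbp+/- naive 2, and 6 without wild-type vehicle 3, wild-type vehicle 5, cbp+/- vehicle 3 or cbp+/- vehicle 5. Uqcr11, Uqcrq, Sdhb and Atp5g2 were called in each of these fits, with adjusted p of at most 0.0260. Without set 4 the count was 19, of which 12 were higher and 7 lower, with 5.14% of all genes higher and 5.46% lower. Without the 3 arrays over the choroid plexus limit it was 6, with 1.18% of all genes called. With array quality weights it was 24, of which 22 were higher and 2 lower, with 14.1% of all genes called. With the label's replicate number as a block it was 43, of which 8 were higher and 35 lower, with 36.0% of all genes called, and the median turned to -0.25. Vehicle and naive controls share no replicate number, so that block sets them against each other only through the TSA and novelty arrays.

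The genotypes were also compared apart. In cbp+/- mice the median difference was 0.24 and no gene passed (limma, 13 at an unadjusted p under 0.05, against 0% and 5.55% of all genes). In wild type the median was 0.18 and 2 genes passed, Atp5g2 (0.58 ± 0.11, adjusted p = 0.0187) and Uqcr11 (0.65 ± 0.13, adjusted p = 0.0305), against 0.391% of all genes (0.125% higher). At an unadjusted p under 0.05 there were 16, against 12.0% of all genes. Without any 1 of the 5 wild-type arrays (vehicle 3, 4 or 5, naive 1 or 2) the count was 0 or 1. Without set 4 the median was 0.08 in cbp+/- mice and 0.11 in wild type. Whether the genotypes differ in this comparison was not tested.

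Genes around the pathway were examined as lists, chosen with earlier results of these data known. Of 10 measured assembly factors of complex I outside the Ndufaf family, Ecsit rose (0.50 ± 0.11, adjusted p = 0.0158) and none fell, and 8 of the 10 differences were negative. Of 32 assembly factors of complexes II to V, Uqcc2, which acts in complex III assembly, rose (0.58 ± 0.12, adjusted p = 0.00969). Of 18 electron carriers and coenzyme Q genes, Etfb, a subunit of the electron transfer flavoprotein, rose (0.39 ± 0.09, adjusted p = 0.0182). Of 12 tricarboxylic acid cycle genes, Mdh2 (malate dehydrogenase) rose by 0.32 ± 0.08 (adjusted p = 0.0410) and Idh3a, a subunit of isocitrate dehydrogenase, fell by 0.29 ± 0.07 on the log2 scale (adjusted p = 0.0208). Of 13 glycolytic enzymes, Pfkm, a phosphofructokinase, fell by 0.54 ± 0.11 on the log2 scale (adjusted p = 0.0106) and none rose. None of 14 biogenesis regulators was called (limma; 3 at an unadjusted p under 0.05), and their median was 0.01. Among 61 cytosolic ribosomal protein genes 8 rose, and among 77 mitochondrial ones 4 rose, with none falling and medians of 0.18 and 0.13. These counts stand beside the 1.08% of all genes that rose and the 1.32% that fell, and a single call in a list of 10 to 32 genes sets no list apart.

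Of 46 cell type markers measured, 1 was called between these controls, the endothelial gene Tek, which was lower in vehicle arrays (-0.50 ± 0.11, adjusted p = 0.0141). The mean log2 level of the 4 endothelial markers ran from 6.52 to 6.96 in vehicle arrays and from 6.96 to 7.01 in naive arrays. That of 3 CA1 or pyramidal markers ran from 8.27 to 8.76 in vehicle arrays and from 8.20 to 8.31 in naive arrays, that of 5 astrocyte markers from 8.72 to 9.10 in vehicle arrays and from 8.95 to 9.13 in naive arrays, and that of 5 general neuronal markers from 10.99 to 11.29 in vehicle arrays and from 11.05 to 11.16 in naive arrays. The vehicle and naive ranges of the CA1, astrocyte and neuronal lists overlapped. Those of the endothelial list did not, by a narrow margin (highest vehicle array 6.955, lowest naive array 6.957). The lowest value of any marker in any array was 4.06, and the part of the markers in the rise was not tested.

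Promoters were read for the called genes because oxidative phosphorylation genes are known targets of NRF1 and of ETS-family factors such as GABP. RefSeq promoters of build GRCm38.p6 were found for 73 of the 89 genes and 8 of the 10 called ones (not Uqcrq and Ndufb9). In the 250 bases before the start, searched on both strands, GCATGCG (reverse complement CGCATGC), the core of the NRF1 motif, was in 10 of 73 genes (13.7%), against 4.58% of 15614 genes tested with a promoter. CCGGAAG (reverse complement CTTCCGG), an ETS motif, was in 13 (17.8%), against 10.7%. Of the 8 called genes, Atp5g2, Sdhb and Atp5k held the NRF1 letters and Uqcr11 the ETS letters. In Atp5g2 and Atp5k the NRF1 letters lie on both strands and overlap by all but 1 base. The 4 promoters are shown because they belong to called genes with a match, with the match in capitals, 5′ to 3′ on the strand of the gene. They are chr10:80406822-80407071 (minus strand) for Uqcr11, chr15:102671048-102671297 (minus) for Atp5g2, chr4:140961021-140961270 (plus) for Sdhb and chr5:108434400-108434649 (minus) for Atp5k.
Uqcr11: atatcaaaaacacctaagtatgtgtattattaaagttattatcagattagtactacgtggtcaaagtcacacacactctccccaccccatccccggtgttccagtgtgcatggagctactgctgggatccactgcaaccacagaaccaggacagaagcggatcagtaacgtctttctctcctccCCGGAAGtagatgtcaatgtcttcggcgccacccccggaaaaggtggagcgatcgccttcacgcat
Atp5g2: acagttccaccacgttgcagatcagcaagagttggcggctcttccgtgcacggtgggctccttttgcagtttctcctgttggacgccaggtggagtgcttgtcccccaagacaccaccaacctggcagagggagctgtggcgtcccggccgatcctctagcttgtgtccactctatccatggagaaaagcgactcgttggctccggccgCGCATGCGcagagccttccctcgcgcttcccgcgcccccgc
Sdhb: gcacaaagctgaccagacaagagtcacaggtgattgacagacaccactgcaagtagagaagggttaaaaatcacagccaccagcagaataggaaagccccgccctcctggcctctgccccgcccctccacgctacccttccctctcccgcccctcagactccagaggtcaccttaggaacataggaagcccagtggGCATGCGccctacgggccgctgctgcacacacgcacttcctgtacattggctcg
Atp5k: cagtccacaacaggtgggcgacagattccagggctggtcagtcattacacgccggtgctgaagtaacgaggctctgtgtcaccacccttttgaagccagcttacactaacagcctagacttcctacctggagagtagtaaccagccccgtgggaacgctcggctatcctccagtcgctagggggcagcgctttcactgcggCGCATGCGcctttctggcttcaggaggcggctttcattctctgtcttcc
A match is a description of the letters, and binding was not measured here.

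The effect of TSA was small in these genes. Averaged over both genotypes and both housings (12 TSA arrays against 12 vehicle arrays), no gene was called (limma) and none had an unadjusted p under 0.05. Over all genes tested 0.331% were called and 5.98% had an unadjusted p under 0.05. The smallest p belonged to Atp5k (-0.12 ± 0.07), Ndufs3, a core subunit of complex I (-0.11 ± 0.07), and Atp5j2 (-0.10 ± 0.07), each with an adjusted p of 1. The difference was negative for 75 of 89 genes, with a median of -0.05, against 0.00 over all genes. By complex the medians were -0.06 (I), -0.04 (II), -0.07 (III), -0.04 (IV), -0.05 (ATP synthase) and -0.06 (assembly factors). Within sets 2, 3 and 4 the medians were -0.03, -0.06 and -0.06, with 58, 77 and 74 of 89 genes negative. Genes of a set share its arrays, so these signs are not independent. Choroid plexus markers were positive in 6 of 6 (median 0.18) and oligodendrocyte markers negative in 4 of 4 (median -0.14), and their part was not tested.

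With array set as a block, again no gene was called, although 4.63% of all genes were. An unadjusted p under 0.05 was found in 13 of the 89 genes, all lower after TSA, against 16.2% of all genes in either direction and 7.42% in the lower direction. The smallest adjusted p belonged to Ndufs4, an accessory subunit needed for a stable complex I. It ran from 8.26 through a median of 9.001 to 9.56 in TSA arrays, against 8.59, 9.13 and 9.65 in vehicle arrays. The groups overlapped widely, and the difference was -0.15 ± 0.04 with the block (adjusted p = 0.0572) and -0.15 ± 0.16 without it. Ndufaf1, a complex I assembly factor, had the most negative difference, -0.20 ± 0.07 with the block (adjusted p = 0.0931). It ran from 6.86 through a median of 7.69 to 8.53 in TSA arrays, against 7.51, 7.67 and 8.74 in vehicle arrays, and its differences within sets 2, 3 and 4 were -0.10, -0.33 and -0.15. Over all 89 genes the differences lay between -0.20 and 0.08, and the 95% intervals with the block between -0.33 and 0.19.

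In the single backgrounds, no gene was called in any of the 4 TSA comparisons (limma). The members at an unadjusted p under 0.05 numbered 0 in cbp+/- with novelty, 0 in cbp+/- in the cage, 1 in wild type with novelty and 0 in wild type in the cage. The shares of all genes were 1.97%, 1.74%, 3.71% and 1.64%, and 0% of all genes were called in each. The medians were -0.02 in cbp+/- with novelty, -0.06 in cbp+/- in the standard cage, -0.10 in wild type with novelty and -0.05 in wild type in the standard cage. With array set as a block again none of the 89 genes was called, with 0.0201%, 0.00502%, 0.160% and 0.0100% of all genes in the same order. At an unadjusted p under 0.05 there were then 2, 2, 15 and 1 members, against 6.34%, 6.02%, 11.9% and 6.14% of all genes. Of the 15 in wild type with novelty, 13 were lower and 2 higher, while the 1 found there without the block, Cox8b, was higher. Within sets 2, 3 and 4 the medians in wild type with novelty were 0.03, -0.12 and -0.20, so set 2 did not share the direction. These comparisons within 1 genotype share their vehicle arrays with the novelty comparisons.

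Novelty gave no call either. Averaged over both genotypes and both injections (12 novelty against 12 cage arrays), 0 of 89 genes were called and 1 had an unadjusted p under 0.05, against 0.160% and 2.48% of all genes (limma). The median was -0.04, against 0.00 over all genes, and 68 of 89 differences were negative. Within sets 2, 3 and 4 the medians were -0.03, -0.01 and -0.06. Cox8c, the third isoform of subunit 8, ran from 4.87 through a median of 5.12 to 5.31 in novelty arrays, against 4.80, 5.01 and 5.11 in cage arrays. The groups overlapped, and its difference was 0.13 ± 0.06 (adjusted p = 1), or 0.13 ± 0.05 with the block (adjusted p = 0.310). With the block none of the 89 genes was called, 8 had an unadjusted p under 0.05 (1 higher, 7 lower), while 0.481% of all genes were called and 8.40% had an unadjusted p under 0.05. The differences lay between -0.14 and 0.13, with 95% intervals between -0.30 and 0.23 with the block. In the single backgrounds none of the 89 genes was called (limma), with at most 0.0100% of all genes. At an unadjusted p under 0.05 there were 0, 1, 1 and 0 members in cbp+/- with TSA, cbp+/- with vehicle, wild type with TSA and wild type with vehicle, against 0.868%, 1.62%, 1.55% and 2.41% of all genes. With the block there were 0, 4, 4 and 9 in the same order, against 3.32%, 5.75%, 6.17% and 8.14% of all genes, and no member was called, against 0.0451% to 0.110% of all genes. The medians were 0.00 in cbp+/- with TSA, -0.05 in cbp+/- with vehicle, -0.07 in wild type with TSA and -0.02 in wild type with vehicle.

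The genotype comparison asks whether losing 1 copy of the coactivator alters these genes. Averaged over 5 conditions (14 cbp+/- against 14 wild-type arrays), no oxidative phosphorylation gene and no other gene was called (limma, 0%), and 0 of 89 had an unadjusted p under 0.05, against 2.38% of all genes. The median was 0.03, against 0.00 over all genes, and 63 of 89 differences were positive. With the block 0.522% of all genes were called and none of the 89, while 12 had an unadjusted p under 0.05 (11 higher, 1 lower), against 9.59%.

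Ndufa7, an accessory subunit of complex I, ran from 6.06 through a median of 6.38 to 6.97 in cbp+/- arrays, against 5.95, 6.29 and 6.74 in wild-type arrays. The groups overlapped, and its difference was 0.18 ± 0.04 with the block (adjusted p = 0.0779) and 0.18 ± 0.10 without it. Within sets 2, 3 and 4 its difference was 0.11, 0.13 and 0.35. Atp5mpl, a small protein associated with Fo, had the largest difference, 0.24 ± 0.07 with the block (adjusted p = 0.118), and differed by 0.19, 0.22 and 0.28 within the sets. Over all 89 genes the differences lay between -0.16 and 0.24, with 95% intervals with the block between -0.30 and 0.37. In single conditions no member was called (limma; 0% of all genes in each). Members at an unadjusted p under 0.05 numbered 2 with vehicle and novelty and 0 elsewhere. The shares of all genes were 1.70% with TSA after novelty, 1.87% with vehicle and novelty, 1.98% with TSA in the cage, 1.73% with vehicle in the cage and 1.62% in naive mice. In the same order the medians were 0.06, 0.01, 0.03, 0.04 and 0.00. With the block no member was called either (at most 0.00502% of all genes). Members at an unadjusted p under 0.05 then numbered 15, 7, 3, 2 and 2 in that order, against 7.95%, 7.65%, 7.60%, 6.70% and 6.03% of all genes. Of the 15 with TSA after novelty, 14 were higher and 1 lower. Within sets 2, 3 and 4 the medians of that comparison were -0.03, 0.09 and 0.20. Its wild-type arrays also entered the TSA comparison in wild type with novelty. Their replicate 3 had the lowest median deviation of the set 4 arrays (0.10).

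**Figure D5:**
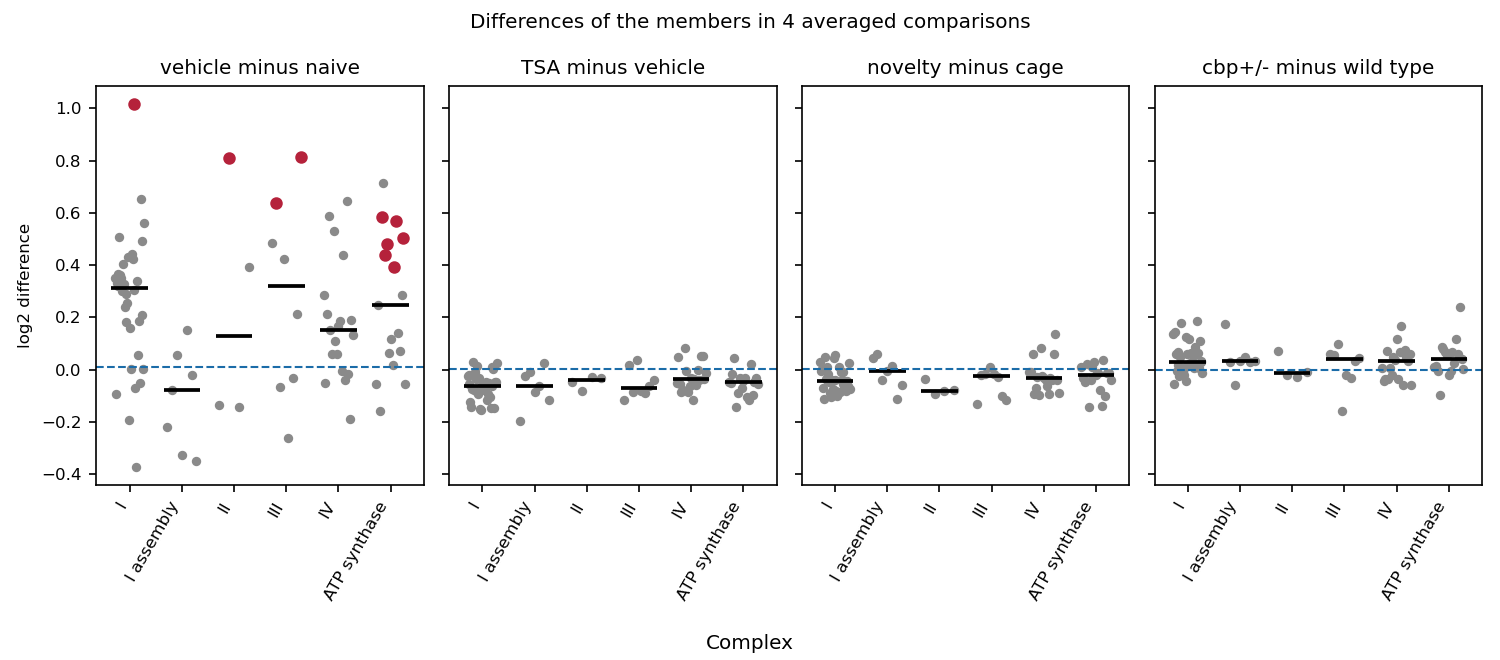
Log2 differences of the 89 genes in the 4 averaged comparisons, by complex. Each point is a gene, red points have an adjusted p under 0.05, black bars are medians and the dashed line is the median of all genes tested. Vehicle against naive spreads from -0.37 to 1.02, while TSA, novelty and genotype stay between -0.20 and 0.24.

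Interactions were tested as the difference of the TSA or novelty effect between genotypes. None of the 89 genes was called in either, with or without the block (limma, and 0% of all genes). For novelty, 1 gene had an unadjusted p under 0.05 against 1.90% of all genes. This was Cox6a2, the heart and muscle isoform of subunit 6A, at 0.30 ± 0.13 (adjusted p = 1, and 0.625 with the block). For TSA no gene had an unadjusted p under 0.05, against 1.30% of all genes. With the block 4 members did for TSA and 3 for novelty, against 4.32% and 7.80% of all genes. The interaction differences lay between -0.28 and 0.30 for TSA and between -0.26 and 0.30 for novelty. Their 95% intervals lay between -0.48 and 0.58 for TSA and between -0.57 and 0.54 for novelty with the block, and between -1.13 and 1.25 and between -1.38 and 1.06 without it.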

How the data were processed

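Each of 28 Affymetrix Mouse Gene 1.0 ST arrays measured 1 pool of hippocampal RNA. The deposited values are log2 levels, made by the authors with RMA (per the submitters' processing notes) in GeneSpring GX 11 (per the labels' protocols); the genome build was not given in the sources used here. RMA aligns the arrays' distributions, so a shift shared by most genes would not be seen. Of 35556 rows, 21789 had 1 gene symbol, 1621 several and 12146 none; the highest-mean row of each of 19938 genes was used, and 17 of the 89 members had several rows, some of which may be near-identical copies.

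All 28 arrays in 10 groups, naive and vehicle controls apart, entered 1 fit with limma 3.58.1 in R 4.3.3 (lmFit, eBayes, two-sided, Benjamini-Hochberg over all 19938 genes, threshold 0.05). The fit was run on simulated data with independent noise for each array. The simulation had no array sets, so it does not test the fit where arrays share a set. The rules for naming took, per complex, the genes with the highest and lowest mean and SD. They also took genes past the threshold, and those with the smallest p where none passed. They were not followed in full. Ndufa10 (highest mean of complex I) and Uqcrfs1 (lowest of complex III) are not described, and others, such as Ndufs1 and Uqcrc1, were named outside the rules. The members and lists were chosen with earlier results of these data known, as were the array sets.

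As a check of pairing, same-numbered TSA and novelty arrays (45 pairs) had correlations of 0.52 to 0.80 in their deviations from group means, and same-numbered vehicle controls of the 2 genotypes 0.58 to 0.77, so label numbers pair those groups. Controls and same-numbered TSA or novelty arrays correlated at -0.59 to 0.13 (36 pairs), whereas vehicle controls 3, 4 and 5 correlated with replicates 1, 2 and 3 at 0.42 to 0.81.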

Additional observations from a re-analysis of the deposited data

Results flagged for a closer look

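Of the genes named for the averaged comparisons and interactions, 2 moved in opposite directions in the 2 genotypes. In each genotype all their TSA or novelty arrays lay on the same side of the mean of the control arrays. Both genes were named for a small interaction p in these same data. The other members were not searched, the share over all genes was not computed, and these differences were not tested. Atp5g2, a c subunit gene of the ATP synthase, after novelty differed between TSA and vehicle by 0.10 in cbp+/- mice and by -0.18 in wild type, a gap of 0.284. Cox6a2, the heart and muscle isoform of subunit 6A, differed between novelty and cage with vehicle by 0.08 in cbp+/- mice and by -0.23 in wild type, a gap of 0.316. The averaged interactions, which also include the other housing or injection, gave 0.18 ± 0.10 for Atp5g2 and TSA and 0.30 ± 0.13 for Cox6a2 and novelty (limma, adjusted p = 1 for both).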

How the results depend on the processing

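The count of called genes moved by over 1.5 times in 32 of 443 comparisons with an alternative. In 410 of the 443 the reported count was 0, which 402 alternatives also gave, so these say little about stability. Where the reported count was above 0 (33 comparisons), 9 stayed within 1.5 times. With the replicate block by array set, 0 genes were called in each comparison it could be fitted to, as without it. The replicate block by label number, which does not pair controls with TSA or novelty arrays, gave 20 for averaged TSA, 28 and 30 for TSA in the cage (cbp+/- and wild type), 24 for averaged novelty, 31 and 33 for novelty with vehicle (cbp+/- and wild type), all higher. The shares of all genes called were 17.5%, 16.4%, 17.5%, 18.1%, 17.7% and 19.9% in that order, against 22.5%, 31.5%, 33.7%, 27.0%, 34.8% and 37.1% of the members. For vehicle against naive it gave 43 (8 higher, 35 lower), 34 (6 and 28) and 39 (5 and 34) in the average, cbp+/- and wild type, with 36.0%, 27.8% and 34.5% of all genes. The median over members turned to -0.25, -0.26 and -0.26 in these 3, and moved to between 0.30 and 0.31 in the 4 cage or vehicle comparisons within a genotype. It reversed the TSA differences of Ndufaf1 (0.31), Ndufaf7 (0.25) and Ndufs4 (0.079) and the novelty differences of Ndufaf6 (0.17) and Uqcr10 (0.14). This block also left 0 calls where numbers pair, in the genotype comparisons and in novelty with TSA.

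For vehicle against naive, averaged (10 called), the intensity trend gave 6, array quality weights 24, leaving out set 4 gave 19, leaving out the choroid plexus arrays gave 6, and leaving out 1 array gave 4 to 11, with 1.51%, 14.1%, 10.6%, 1.18% and 0.562% to 2.26% of all genes called. Uqcr11, Uqcrq, Sdhb and Atp5g2 passed, and stayed higher, in 9 of 9 alternatives, the label-number block included, and in all 10 omissions; Atp5d, Atp5j2, Atp5o and Ndufb9 passed in 1 or 2 of the omissions. In wild type (2 called) the count was 0 with only the arrays compared, 1 after quantile normalization, 0 with the trend, 17 with weights (12.3% of all genes), 5 without set 4 (4.20%) and 0 to 1 with 1 array left out. In cbp+/- (0 called) weights gave 6 (1.04%). The omissions of set 4 and of the choroid plexus arrays were chosen after seeing the data. Where fewer arrays or more calls result, the cause was not tested. The number of arrays, 2 to 3 a group, limits what could be detected.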

Other observations

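Uqcrc1, core protein 1 of complex III, was chosen after its values were seen. The reason was that 3 of its 4 wild-type arrays of set 4 lay above all 4 cbp+/- arrays of that set. This pattern was not tested. The cbp+/- arrays measured 10.09 (novelty with TSA), 10.09 (novelty with vehicle), 10.31 (cage with TSA) and 10.40 (cage with vehicle). The wild-type arrays measured 11.10 (novelty with TSA), 10.88 (novelty with vehicle), 10.73 (cage with TSA) and 10.26 (cage with vehicle). In set 2 all 8 arrays lay between 10.27 and 10.46 and in set 3 between 9.50 and 9.80, and the genotypes overlapped in both. In the genotype comparison averaged over conditions (limma), Uqcrc1 differed by -0.16 and was not called with or without the block. Its lower 95% bound with the block was -0.30.

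Where a called gene had further rows with its symbol, these differed in the same direction between vehicle and naive controls. The other row of Uqcr11 differed by 0.47 ± 0.12, that of Atp5g1 by 0.40 ± 0.08, and the other 2 of Atp5g2 by 0.44 ± 0.07 and 0.37 ± 0.07.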
